A study of Homo sapiens with 2 samples.

Results

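The SLCO genes encode organic anion transporting polypeptides, carriers of the plasma membrane that take up large organic anions such as steroid sulfates, thyroid hormones, prostaglandins and drugs. The 5 genes described here are SLCO4C1, SLCO4A1, SLCO2A1, SLCO3A1 and SLCO2B1, of 18244 genes read by at least 1 probe set with a single gene symbol. They were chosen by name, with their difference between the arrays already known, so their values are a description and support nothing further. They are read by 18 probe sets, each a group of short probes for 1 transcript region, and every one of the 18 is given below.

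MDA-MB-231, a human breast carcinoma line, was grown in glucose-containing DMEM in both groups. The knockdown group was 1 clone with stable UGT8 knockdown, and its control was the parental line. The labels used here name neither the knockdown reagent nor whether the control cells carried a vector. UGT8 makes galactosylceramide in the endoplasmic reticulum. Total RNA of each was hybridised to 1 Affymetrix array. With 1 array per group there is no replicate error and no test, and a clone that differs from its parental line for other reasons cannot be told apart from the knockdown. Less RNA per cell and fewer cells that hold the RNA cannot be told apart either.

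Carriers of this family exchange a substrate against another anion and need no ATP. SLCO2A1 is known as the prostaglandin transporter, which brings prostaglandin E and F into cells where they are broken down. SLCO4A1, SLCO4C1 and SLCO3A1 carry thyroid hormones, and SLCO4C1 is best known from the kidney proximal tubule, where it takes up digoxin and uraemic toxins. SLCO2B1 carries steroid sulfates and many oral drugs in gut and liver.

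The 250 bases before the start of SLCO4C1 and of SLCO2B1 are printed, 5′ to 3′, with each CG dinucleotide in capitals. SLCO4C1 differed most, and SLCO2B1 lay below the floor with a difference near 0. They come from RefSeq's table for GRCh38.p14, which held such a window for 3 of the 5 genes. SLCO4C1 lies on the minus strand (chr5:102296285-102296534), and the first listed start of SLCO2B1 lies on the plus strand (chr11:75150857-75151106).
SLCO4C1: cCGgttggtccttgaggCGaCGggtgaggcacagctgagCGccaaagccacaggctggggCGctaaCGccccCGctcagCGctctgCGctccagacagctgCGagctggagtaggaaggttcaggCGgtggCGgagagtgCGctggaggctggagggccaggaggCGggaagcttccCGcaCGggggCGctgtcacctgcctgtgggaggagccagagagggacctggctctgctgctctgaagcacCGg
SLCO2B1: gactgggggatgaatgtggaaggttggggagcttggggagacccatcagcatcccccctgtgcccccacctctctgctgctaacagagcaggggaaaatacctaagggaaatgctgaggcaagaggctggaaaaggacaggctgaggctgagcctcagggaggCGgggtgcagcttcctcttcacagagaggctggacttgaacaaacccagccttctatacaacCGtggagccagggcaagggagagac
The SLCO4C1 window holds 18 CG dinucleotides and is 69.2% G or C, and 63.5% of 27305 windows, 1 per gene, hold fewer. The SLCO2B1 window holds 2 and is 58.4% G or C, and 15.4% of windows hold fewer. Not printed are both SLCO3A1 windows, with 32 each (78.4% and 80.4% G or C), and the second of SLCO2B1, with 5 (58.8%). Both strands were searched for 7 short motifs. These were GCGTG (core of the element bound by the aryl hydrocarbon receptor), GGGCGG (bound by SP factors), TATAAA (bound by TBP), CACGTG (bound by MYC and others), TGANTCA (bound by AP-1), CCAAT (bound by NF-Y) and TTCCCGC (core of E2F sites). Only TTCCCGC was found in the printed windows. It occurs in the SLCO4C1 window on the minus strand, 86 to 80 bases before the start, and on the plus strand, 77 to 71 bases before it. Of all windows, 5.59% hold TTCCCGC on either strand, against 42.3% with GGGCGG and 31.9% with GCGTG. Of the windows not printed, both of SLCO3A1 hold GGGCGG, its first also GCGTG and its second also CCAAT. The second SLCO2B1 window holds CCAAT. A match is a match of letters and not a shown binding site.

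All levels below are log2 RMA values, and a difference is the UGT8 knockdown value minus the control value. For each gene the probe set brightest on average was taken, and the floor for a gene to count as measured was the median mean level of all probe sets other than controls (6.64). The 10439 genes past this floor had a median difference of 0.029. The 23 background probe sets averaged 4.73 on both arrays, with a range of 2.76 to 11.2 on the knockdown array and 2.77 to 11.1 on the control array, so their mean is a rough mark only.

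UGT8 itself was lower in the cells labelled as knockdown in each of its 3 probe sets. The brightest read 6.61 in knockdown cells, against 8.95 in control cells, which leaves 19.7% of the control signal. The others read 5.78 and 4.79 in knockdown cells, against 7.47 and 7.06 in control cells.

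SLCO4C1 and SLCO2A1 were lower in the knockdown cells by more than 2-fold, SLCO4A1 was lower by 1.60-fold in its brightest probe set, and SLCO3A1 and SLCO2B1 lay within 1.5-fold. Thus 2 of the 5 genes were at least 2-fold lower and 0 at least 2-fold higher, beside 1.54% lower and 0.738% higher among all genes past the floor. At 1.5-fold, 3 were lower and 0 higher, beside 6.74% and 4.96% of all genes. As the genes were picked on this contrast, nothing is read from these shares. The median of the 5 differences was -0.68, and 4 of the 5 genes lay past the floor.

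**Figure D1:**
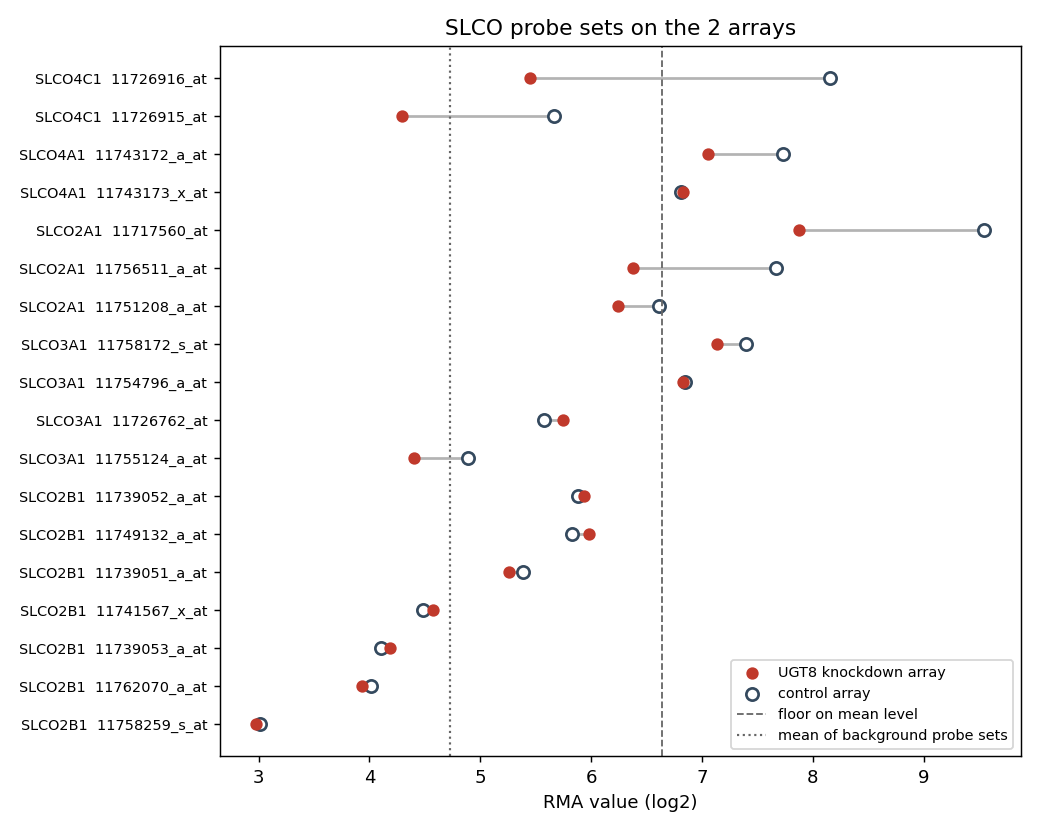
RMA values (log2) of the 18 probe sets of the 5 SLCO genes, with UGT8 knockdown cells as filled red points and control cells as open points, 1 array each. The long bars belong to SLCO4C1 and SLCO2A1, whereas the SLCO2B1 pairs differ by at most 0.16.

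SLCO4C1, the transporter known from the kidney, showed the largest difference. Its brightest probe set, 11726916_at, read 5.45 in knockdown cells and 8.16 in control cells. The difference of -2.71 is a 6.52-fold lower signal, 15.3% of that in control cells. The control value lay well past the floor of 6.64, and the knockdown value lay below it. Among all genes past the floor only ITGA10 had a lower value. By brightest probe set SLCO4C1 thus differed more than UGT8, the targeted gene. Averaged over all probe sets as measured, the order reversed, at -2.04 for SLCO4C1 and -2.10 for UGT8. The other probe set of SLCO4C1, 11726915_at, was dim. It read 4.29 in knockdown cells, under the background mean of 4.73, and 5.67 in control cells. Its difference of -1.38 is therefore better given as a rough bound. With the knockdown value set to the background mean, it is 1.92-fold lower. Both probe sets pointed the same way.

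SLCO2A1, the prostaglandin transporter, was lower in all 3 of its probe sets. The brightest, 11717560_at, read 7.88 in knockdown cells and 9.55 in control cells, a difference of -1.67 or 31.5% of the control signal. The next, 11756511_a_at, read 6.38 in knockdown cells and 7.67 in control cells (-1.29). The dimmest, 11751208_a_at, read 6.24 in knockdown cells and 6.62 in control cells, a smaller difference of -0.38. The mean was -1.11 ± 0.66 (SD over its 3 probe sets, which is no replicate error). The difference was smaller in the dimmer probe sets. The 2 probe sets past the floor differed from each other by 0.38. Among the 98 genes at least 2-fold lower that had several probe sets past the floor, the median range was 0.24, and 37 of them had a wider range than SLCO2A1. SLCO2A1 came after 24 genes in the order of differences past the floor.

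SLCO4A1, a carrier of thyroid hormone and oestrone sulfate, gave readings that did not point one way. Probe set 11743172_a_at read 7.05 in knockdown cells and 7.74 in control cells, a difference of -0.68. Probe set 11743173_x_at, whose name marks possible cross-hybridisation, read 6.83 in knockdown cells and 6.81 in control cells, a difference of 0.021. Both lay past the floor, and their mean was -0.33 ± 0.50 (SD over 2 probe sets). Whether SLCO4A1 transcripts were lower thus rests on 1 probe set. SLCO4A1-AS1, an antisense transcript of the same locus with 1 probe set, read 8.82 in knockdown cells and 9.61 in control cells (-0.79). How far transcripts of either strand enter the SLCO4A1 readings was not tested.

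SLCO3A1, a broadly expressed carrier of prostaglandins and thyroxine, differed little. Its brightest probe set, 11758172_s_at, whose name marks possible cross-hybridisation, read 7.14 in knockdown cells and 7.40 in control cells (-0.26). Probe set 11754796_a_at, also past the floor, read 6.83 in knockdown cells and 6.85 in control cells (-0.021). The others lay below the floor and had opposite signs. Probe set 11726762_at read 5.75 in knockdown cells and 5.57 in control cells (0.17). Probe set 11755124_a_at read 4.40 in knockdown cells and 4.89 in control cells (-0.49), with the knockdown value under the background mean. Its rough bound is 1.12-fold lower. The 2 probe sets past the floor averaged -0.14.

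SLCO2B1, the steroid sulfate and drug carrier of gut and liver, was dim on both arrays. Its 7 probe sets read 2.98 to 5.98 in knockdown cells and 3.01 to 5.88 in control cells, so none reached the floor. The brightest, 11739052_a_at, read 5.93 in knockdown cells and 5.88 in control cells (0.054). Probe set 11749132_a_at had the same mean level and read 5.98 in knockdown cells and 5.83 in control cells (0.16). Of the 7 probe sets, 4 were higher and 3 lower in knockdown cells, by -0.12 to 0.16, and 4 read at or under the background mean on both arrays. The differences were thus near 0, and at this low signal they do not show that the gene was unchanged.

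By probe set, 4 of the 18 were at least 2-fold lower as measured. Of all 49393 probe sets other than controls, 1.09% were at least 2-fold lower by the same count. Of the 4, 3 had both values above the background mean, 1 of SLCO4C1 and 2 of SLCO2A1. For the dim probe set of SLCO4C1, the rough bound from the background mean is 1.92-fold lower. Of the 18, 0 were at least 2-fold higher and 13 lay within 1.5-fold. The shares of all probe sets for these last counts were not computed, so nothing is read from them. The order of the genes from the lowest difference was SLCO4C1, SLCO2A1, SLCO4A1, SLCO3A1 and SLCO2B1. The probe sets of SLCO4C1 read -2.71 and -1.38, the latter with its knockdown value under the background mean. As measured, the latter lies within the span of SLCO2A1, -1.67 to -0.38. The probe sets of SLCO4A1 spanned -0.68 to 0.021, so SLCO2A1 and SLCO4A1 overlap too. The probe sets past the floor of SLCO3A1, at -0.26 and -0.021, lie within the span of SLCO4A1.

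**Figure D2:**
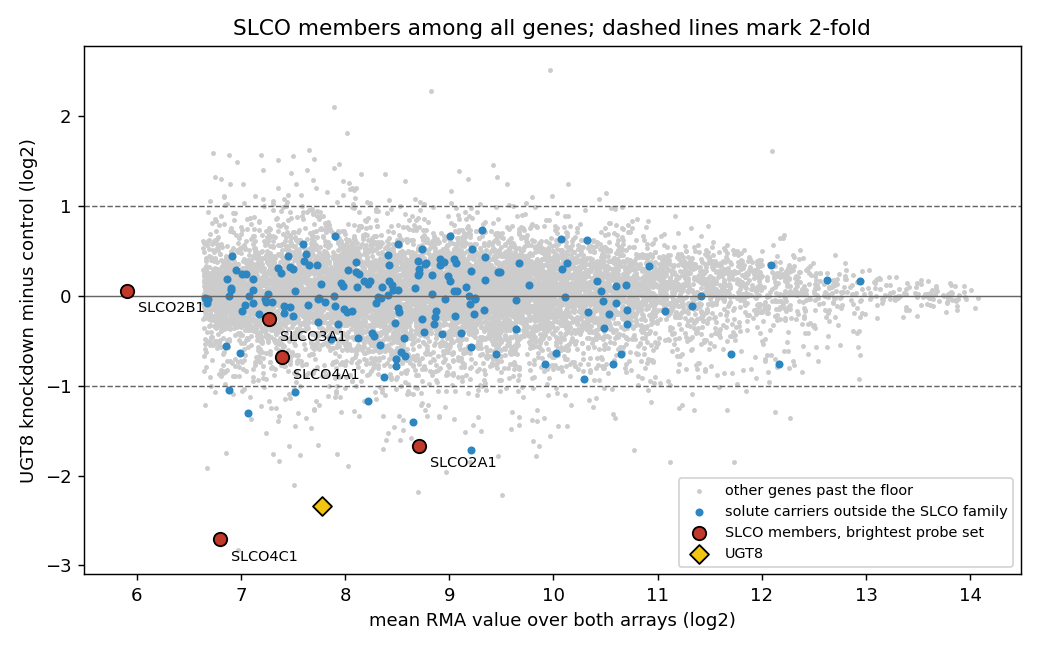
Difference of UGT8 knockdown minus control (log2) against the mean RMA value over both arrays (log2), with 1 point per gene for its brightest probe set. SLCO4C1 lies below UGT8 at -2.71, SLCO2A1 lies at -1.67, and SLCO2B1 lies left of the floor of 6.64.

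The rest of the SLCO family was mostly dim and lay near 0. Of the 7 other genes listed, 6 were read by 14 probe sets, and all 14 lay within 1.5-fold, with differences of -0.22 to 0.28. SLCO1B3, a hepatocyte carrier that is also known from tumours, was the only one past the floor. It read 7.98 in knockdown cells and 7.73 in control cells (0.25), while its second probe set read 3.52 in knockdown cells and 3.74 in control cells (-0.22). The remaining probe sets of SLCO1A2, SLCO1B1, SLCO1C1, SLCO5A1 and SLCO6A1, with the second of SLCO1B3, read 3.41 to 5.95 in knockdown cells and 3.46 to 6.03 in control cells. Among them, 2 probe sets of SLCO1C1 gave the same difference of 0.046, and 2 of SLCO1A2 gave exactly 0. Whether they are independent readings was not tested.

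Set among the other solute carriers, SLCO4C1 had the lowest difference and SLCO2A1 the third lowest of 177 carriers past the floor, SLCO4A1 was at place 16 and SLCO3A1 at place 43. SLCO4C1 passed the floor on mean level only through its control value. As the SLCO genes were also picked on this contrast, nothing is read from these places. The 173 carriers outside the SLCO family had a median of -0.0081. Of these, 20 were at least 1.5-fold lower (11.6%, beside 6.74% of all genes) and 5 higher (2.89%, beside 4.96%). At 2-fold, 6 were lower (3.47%, beside 1.54% of all genes) and 0 higher (beside 0.738%). The glutamate transporter gene SLC1A7 read 8.35 in knockdown cells and 10.1 in control cells (-1.72). The bicarbonate cotransporter gene SLC4A4 (-1.41) and the myo-inositol transporter gene SLC2A13 (-1.31) came next. At the other end were the zinc importer gene SLC39A4 (0.73) and the mitochondrial carrier genes SLC25A12 (0.67) and SLC25A22 (0.66).

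Other routes for organic anions differed less than SLCO4C1 and SLCO2A1. These were the lowest of 5 genes picked on this contrast, so nothing is read from that. Of 19 SLC22 genes with a probe set, 5 lay past the floor with a median of -0.19. Of the 5, 1 was at least 1.5-fold lower (20%, beside 6.74% of all genes past the floor) and 0 higher (beside 4.96%). SLC22A23, an orphan member, read 7.92 in knockdown cells and 8.82 in control cells (-0.90). Of 9 bile acid carriers, 1 lay past the floor and it was within 1.5-fold. The 7 ABC exporters past the floor, which pump conjugates and drugs out of cells, had a median of -0.019. Of the 7, 2 were at least 1.5-fold lower (28.6%, beside 6.74% of all genes past the floor) and 0 higher (beside 4.96%). ABCC3 read 8.25 in knockdown cells and 9.00 in control cells (-0.75). ABCC4, which also exports prostaglandins, read 8.63 in knockdown cells and 9.26 in control cells (-0.63).

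Of the enzymes and receptors that make, break down or sense prostaglandins, 11 lay past the floor, with a median of -0.057. Of the 11, 1 was at least 1.5-fold lower (9.09%, beside 6.74% of all genes past the floor) and 0 higher (beside 4.96%). The 1 was PTGS2, the inducible cyclooxygenase, at 10.8 in knockdown cells and 12.7 in control cells (-1.85). HPGD, the dehydrogenase that inactivates prostaglandins after uptake by SLCO2A1, lay below the floor on mean level and is named here after its value was seen. It read 5.71 in knockdown cells and 6.71 in control cells (-1.01), by a probe set whose name marks possible cross-hybridisation. PTGES, which encodes the inducible prostaglandin E synthase, read 11.3 in knockdown cells and 11.0 in control cells (0.32). PTGER4, a receptor for prostaglandin E, read 9.87 in knockdown cells and 9.62 in control cells (0.25).

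Genes that handle the thyroid hormone substrates lay near 0, with 6 past the floor and a median of 0.15. Of the 6, 16.7% were below 0, beside 45.8% of all genes past the floor. At 1.5-fold, 0 were lower (beside 6.74%) and 1 higher (16.7%, beside 4.96%). SLC7A5, a large neutral amino acid transporter that also carries thyroid hormone, was that 1, at 10.4 in knockdown cells and 9.76 in control cells (0.62). The receptor genes THRA (0.15) and THRB (-0.24) were within 1.5-fold. All 8 genes of steroid sulfate and oestrogen handling past the floor were below 0, beside 45.8% of all genes past the floor. Their median was -0.28, beside 0.029 for all genes. At 1.5-fold, 2 were lower (25%, beside 6.74%) and 0 higher (beside 4.96%). As the lists were chosen with earlier results of these data known, nothing is read from these shares. HSD17B2, which oxidises oestradiol, read 7.74 in knockdown cells and 8.59 in control cells (-0.84). HSD17B7, a reductase of oestrone that also acts in cholesterol synthesis, read 6.45 in knockdown cells and 7.28 in control cells (-0.83). STS, the steroid sulfatase that acts on what these carriers bring in, read 7.68 in knockdown cells and 7.92 in control cells (-0.24).

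**Figure D3:**
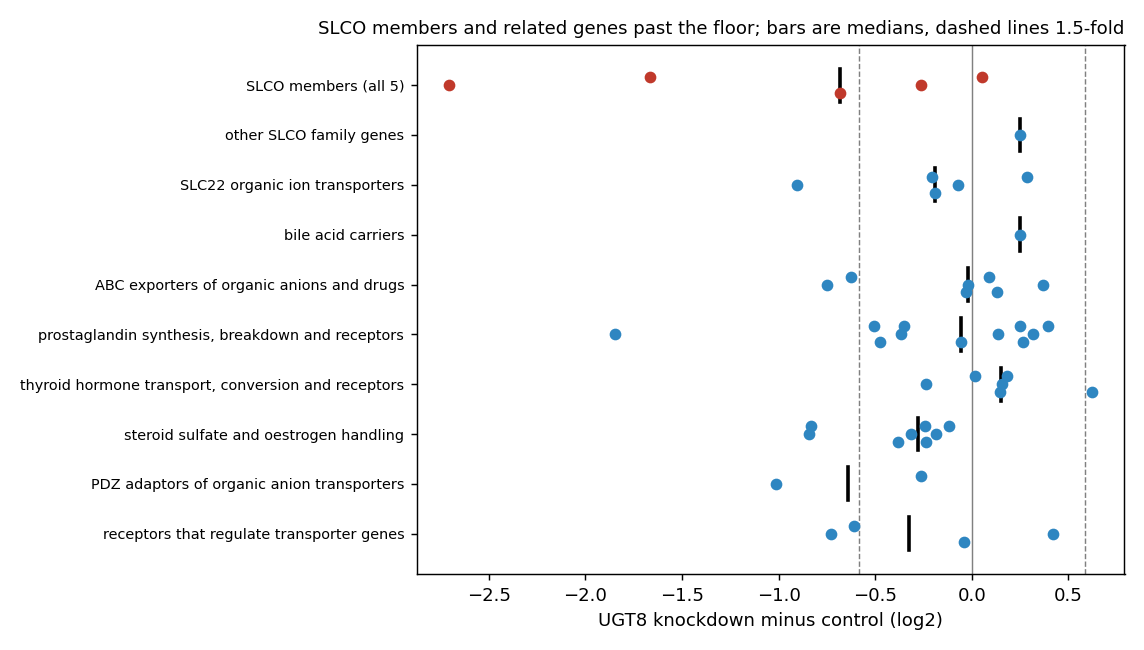
Difference of UGT8 knockdown minus control (log2) for all 5 SLCO genes (red) and for the genes past the floor in 9 lists (blue), each point 1 gene. The medians of the transporter and substrate lists lie between -0.64 and 0.25, and PTGS2 at -1.85 is the lowest point outside the SLCO genes.

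Of the genes that anchor or regulate these carriers, few were measured. Of the PDZ group, 2 genes lay past the floor. PDZK1IP1, which binds the scaffold PDZK1, read 7.84 in knockdown cells and 8.86 in control cells (-1.01), and the scaffold gene NHERF1 differed by -0.26. Of 4 measured regulators, AHR and ARNT were at least 1.5-fold lower, beside 6.74% of all genes past the floor. Together they form the aryl hydrocarbon receptor complex. This list too was chosen with earlier results known, so nothing is read from the share. AHR read 10.6 in knockdown cells and 11.3 in control cells (-0.61). ARNT read 6.79 in knockdown cells and 7.51 in control cells (-0.73). VDR (0.42) and RXRA (-0.038) were within 1.5-fold.

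The genes next to each SLCO gene were read to show the chromosomal surroundings. For each of the 5, the nearest 2 protein-coding genes on either side with a probe set were read, 20 in all, of which 10 lay past the floor. None of the 20 was 2-fold lower or higher, and 17 lay within 1.5-fold. Of all genes past the floor, 88.3% lay within 1.5-fold, 1.54% were 2-fold lower and 0.738% higher. These shares leave out dim genes, which the 20 include, so nothing is read from the counts. SLCO4C1 on chromosome 5 lies beside SLCO6A1, which read 4.21 in knockdown cells and 3.96 in control cells. Beyond it, PAM, which amidates peptide hormones, read 10.5 in knockdown cells and 11.1 in control cells (-0.65). On the other side, the polysialyltransferase gene ST8SIA4 differed by -0.54 and FAM174A by -0.11. SLCO2A1 on chromosome 3 lies between RAB6B (-0.77), a GTPase gene of vesicle transport, and RYK (-0.70), a Wnt receptor gene. Its outer neighbours were SRPRB (0.47) and AMOTL2 (-0.022). The neighbours of SLCO4A1, SLCO3A1 and SLCO2B1 differed by -0.23 to 0.31.

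**Figure D4:**
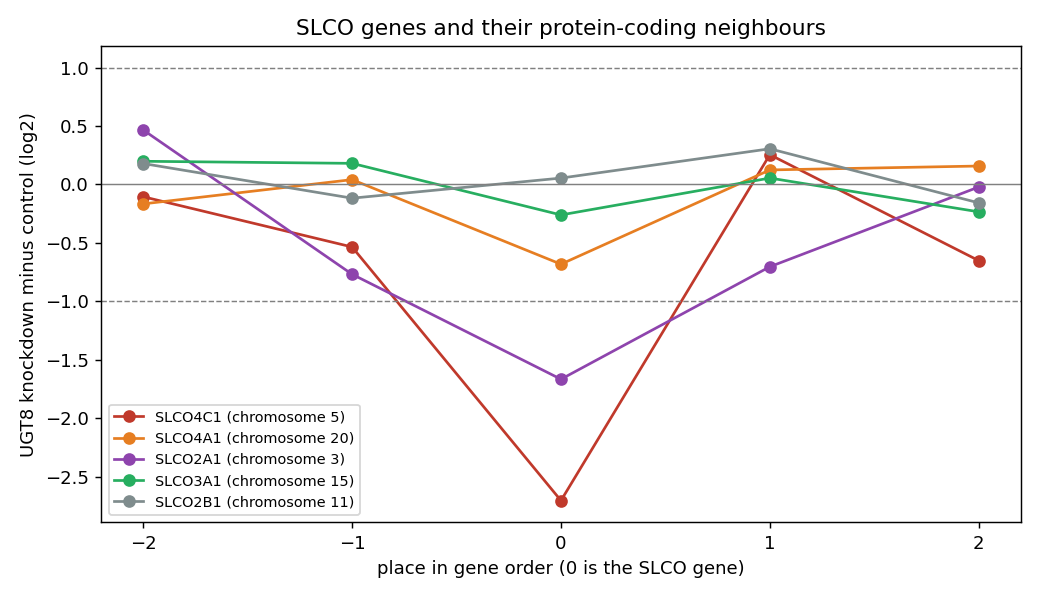
Difference of UGT8 knockdown minus control (log2) for each SLCO gene (place 0) and its nearest protein-coding neighbours in gene order. SLCO4C1 and SLCO2A1 lie below their neighbours, which span -0.77 to 0.47 over all 20.

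Over both arrays, the genes past the floor whose pair of values lay nearest to that of SLCO4C1 were ITGA10 at a distance of 0.25, TMEM178A at 0.59 and LGR5 at 0.68. The distance is the straight-line one between the pairs of log2 values. Nearest to SLCO2A1 were RND1 (0.13), NFIB (0.20) and SLC4A4 (0.20). The pairs of SLCO4A1 and SLCO3A1 had nearer company, with TESK2 (0.017), SAA4 (0.021) and LDB2 (0.032) for SLCO4A1 and SOCS6 (0.0055), KAT6B (0.018) and PLBD2 (0.023) for SLCO3A1. For SLCO2B1, which is under the floor, the nearest were CCDC120, ZNF641 and CLDN9, all at 1.04. With 2 arrays this likeness says only that the values are close.

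All 6 markers fixed for MDA-MB-231 cells were past the floor, at 9.39 to 13.9 in knockdown cells and 9.92 to 13.9 in control cells. Of the 6, 5 were lower in knockdown cells, with differences of -0.77 to 0.0075 over the list. ESR1 and PGR lay below the floor, but CDH1 and GATA3, listed as absent, lay past it. Of kidney proximal tubule markers, 0 of 5 lay past the floor. Of 5 hepatocyte markers, 1 lay past the floor, SLCO1B3 (0.25), with ALB at or under the background mean on both arrays. Of 5 fibroblast markers, LUM (-1.34) and COL3A1 (-1.53) lay past the floor. The fibroblast list ranged from 4.11 to 6.69 in knockdown cells and from 4.47 to 8.04 in control cells, with DCN and PDGFRA at or under the background mean on both arrays. Of 4 endothelial markers, PECAM1 (-1.09) and KDR (-0.36) lay past the floor. The endothelial list ranged from 4.61 to 7.37 in knockdown cells and from 4.61 to 8.46 in control cells, with CDH5 at or under the background mean. Of 5 leukocyte markers, 4 had a probe set, and CD14 (-0.73) and CD68 (0.13) lay past the floor. That list ranged from 3.40 to 9.46 in knockdown cells and from 3.56 to 9.33 in control cells, with PTPRC at or under the background mean. The 3′ minus 5′ difference of the ACTB control probe sets, a sign of RNA quality, was 0.90 in knockdown cells and 0.49 in control cells, and that of GAPDH was 0.19 and 0.18. The part of these in the SLCO differences was not tested.

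The differences depend on what is taken as unchanged. The hybridisation control RNAs had a median difference of 0.51, and centring on them lowers each difference by that amount, to a median of -0.48 over all genes past the floor. On that scale SLCO4C1 differed by -3.22, SLCO2A1 by -2.18, SLCO4A1 by -1.20, SLCO3A1 by -0.77 and SLCO2B1 by -0.46, so that SLCO4A1 passes 2-fold and SLCO2B1 turns from above to below 0. Likewise every other difference above 0 but under 0.51, such as that of SLCO1B3, falls below 0. The poly-A control RNAs had a median difference of only 0.071, and on their scale SLCO4A1 differed by -0.75.

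**Figure D5:**
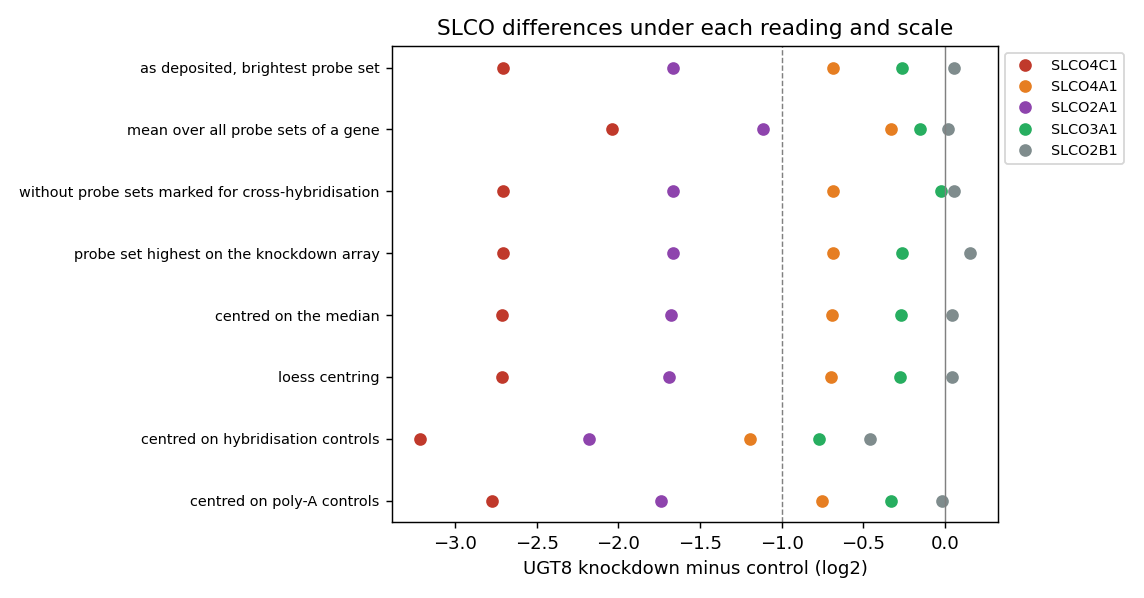
Difference of UGT8 knockdown minus control (log2) of the 5 SLCO genes as deposited and under 7 other readings or scales. SLCO4C1 and SLCO2A1 lie below -1 in each row, SLCO4A1 passes -1 only on the scale of the hybridisation controls, and SLCO2B1 lies between -0.46 and 0.16.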

How the data were processed

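Values of 2 arrays were read, 1 of UGT8 knockdown cells and 1 of control cells, grouped by the genotype labels. The deposited values are on the log2 scale and were made by the authors with RMA, per the submitters' processing notes. RMA corrects background, normalizes between arrays and summarises probes, which removes a shift common to most transcripts. The RMA software, its version and a genome build are not named in the labels.

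The table holds 49495 probe sets. Besides 102 controls, the platform's annotation gives 1 gene symbol for 45278, several for 1333 and none for 2782. Symbols were updated through gene IDs, of which 18192 of 18247 were found in NCBI RefSeq's table for GRCh38.p14. Differences were computed with Python 3.11.15, pandas 2.3.3 and statsmodels 0.14.6, and the counting was tested on simulated data. No test was run.

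The genes and lists were chosen with earlier results of these data known. Named were the 5 genes, UGT8, the other SLCO genes, up to 6 list genes past the floor and 1.5-fold, the 3 nearest genes of each member and the 3 outermost solute carriers each way. Neighbours were taken by position, and other genes named were picked after their values were seen. The names of some brightest probe sets mark possible cross-hybridisation, among them those of ABCC3, ABCC4, HSD17B7, AHR, ARNT, PECAM1, LUM and COL3A1. Alternatives changed 1 choice at a time (floor, reading of a gene, centring, fold threshold).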

Additional observations from a re-analysis of the deposited data

How the results depend on the processing

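The differences of the 5 SLCO genes and of UGT8 were recomputed under 7 alternatives and the counts under 12. A difference was taken as moved when it changed by at least 0.08, the median SD between probe sets of 1 gene, which is no replicate error. Centring on the median, by loess and on the poly-A controls left all 6 within that, although SLCO2B1 turned to -0.016 on the poly-A scale. Averaging all probe sets of a gene gave -2.04 for SLCO4C1, -1.11 for SLCO2A1, -0.33 for SLCO4A1, -0.15 for SLCO3A1 and -2.10 for UGT8. There the dim probe set of SLCO4C1 enters at its measured value, although its knockdown value lay under the background mean. Centring on the hybridisation controls gave -3.22, -2.18, -1.20, -0.77 and -2.85 for the same genes, and -0.46 for SLCO2B1. Without probe sets marked for cross-hybridisation SLCO3A1 differed by -0.021. SLCO2B1 differed by 0.16 when read by its highest probe set on the knockdown array.

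The count of SLCO genes at least 2-fold lower was 2, and it was 1 both after averaging and with a floor at the 75th percentile, because the mean level of SLCO4C1 is then under the floor. It ranged from 1 to 3 over the alternatives, and 0 were higher under each. Of all genes, 161 were at least 2-fold lower, against 99 after averaging, 84 with the 75th percentile as floor, 966 centred on the hybridisation controls, 704 at 1.5-fold and 29 at 3-fold. The 77 at least 2-fold higher became 118 with no floor, 117 with the floor at the 25th percentile, 21 at the 75th, 46 after averaging, 11 centred on the hybridisation controls, 518 at 1.5-fold and 7 at 3-fold. No paired analysis was possible because each group holds 1 array, and no replicate could be left out. Signal over background limits SLCO2B1 and the dim probe sets of SLCO4C1 and SLCO3A1.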
